A study of Homo sapiens with 4 samples.

Results

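The S100 genes described here encode small calcium-binding proteins. They are S100A2, S100A3, S100A4, S100A6, S100A8, S100A9, S100A10, S100A11, S100A14 and S100P, found on the array by gene name. These 10 genes, of 43310 gene names on the array, were represented by 11 of 58201 gene probes, since S100A11 had 2 probes and the others had 1 each. Gene expression was measured on 1-colour microarrays in 2 established human cancer cell lines, HCT116 from a colorectal cancer and A549 from a lung cancer. Cells of each line were transfected, using Dharmafect1, with the microRNA miR-891b or with the negative control NC1. Each of the 4 combinations of line and RNA had 1 array, with 100 ng of total RNA per sample. The title of the series names PSAT1, an enzyme of serine synthesis, and vesicle release as its subject. No time after transfection and no dose were used here, and the level of the microRNA in the cells was not analysed here. All cells had received a transfected RNA, so untransfected cells form no part of the comparison. Because no group had a second array, differences within a line have no replicate check and no p-value. Slide 1 carried the HCT116 pair and slide 2 the A549 pair, so line and slide cannot be told apart.

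Most S100 proteins are dimers in which each subunit carries a pair of EF-hand loops. Calcium binding opens a hydrophobic cleft through which the dimer grips a partner protein, often an annexin or a part of the cytoskeleton. S100A10 is the exception: it is locked in the open form and binds annexin A2 without calcium. Several members are also released from cells and act on surface receptors such as AGER (RAGE) and TLR4. Most S100 genes lie side by side in a cluster at chromosome band 1q21, next to the genes of the epidermal differentiation complex, whereas S100P lies on chromosome 4. The family is used widely as a source of markers in epithelial cancers.

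The transfected microRNA is shown first, because its seed is the stretch through which a microRNA recognises its targets. The mature sequence is from RefSeq (GRCh38.p14, chrX:146001100-146001121, minus strand), with the seed, bases 2 to 8, in capitals.
hsa-miR-891b: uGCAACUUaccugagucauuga
The complement of this seed, AAGTTGC, was present in the sequence of 0 of 11 S100 probes and in 229 (0.393%) of all 58201 gene probes. A probe covers only 60 bases of a transcript, so this says nothing of the rest of each transcript.

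The sequences upstream of 3 members are shown because these genes mark the ends of the range seen between the lines. S100P and S100A14 had the widest gaps between HCT116 and A549, in opposite directions, and S100A6 had the narrowest gap on the NC1 arrays. Each run is the 250 bases before the RefSeq start site on the gene's own strand (GRCh38.p14), with every CG dinucleotide in capitals.
S100P, chr4:6693628-6693877, plus strand: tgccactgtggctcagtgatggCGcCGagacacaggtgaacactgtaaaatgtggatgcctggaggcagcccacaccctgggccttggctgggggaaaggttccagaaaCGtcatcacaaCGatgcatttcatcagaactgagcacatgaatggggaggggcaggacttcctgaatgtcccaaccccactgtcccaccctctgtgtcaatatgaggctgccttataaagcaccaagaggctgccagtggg
S100A14, chr1:153616326-153616575, minus strand: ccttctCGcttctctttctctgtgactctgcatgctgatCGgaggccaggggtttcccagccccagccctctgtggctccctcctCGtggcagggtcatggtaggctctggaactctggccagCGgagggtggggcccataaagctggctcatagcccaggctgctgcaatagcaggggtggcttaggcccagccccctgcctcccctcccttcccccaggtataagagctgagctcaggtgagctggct
S100A6, chr1:153535992-153536241, minus strand: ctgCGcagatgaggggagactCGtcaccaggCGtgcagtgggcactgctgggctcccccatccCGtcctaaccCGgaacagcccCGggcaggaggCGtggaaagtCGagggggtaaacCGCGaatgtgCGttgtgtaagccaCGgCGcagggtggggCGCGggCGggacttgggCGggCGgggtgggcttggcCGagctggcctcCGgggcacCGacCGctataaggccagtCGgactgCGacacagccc
The S100P and S100A14 stretches held 4 CG dinucleotides each and the S100A6 stretch held 24. Other members did not follow this order. The S100A10 and S100A11 stretches held 24 and 15, and these genes were 3.34-fold and 2.35-fold higher in A549 on the NC1 arrays. The S100A4 stretch held 7, and its lines differed there by 1.36-fold. Methylation and factor binding were not measured, and these sequences are a description only.

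The values below are log2 processed signals relative to the 75th percentile of the same array, so 0 is the level below which 75% of gene probes lay. A probe is called well above background where the scanner software marked it so. Of the 58201 gene probes, 44.7 to 50.3% met that mark on the 4 arrays, and no gene spot was saturated. Among probes with at least 5 spots, the median SD of a log2 difference between arrays was 0.0615 to 0.0711, which covers spots and not cultures or labelling. Each S100 probe had 1 spot, and the scanner software's own error of such a spot gave a log2 difference between arrays an error of 0.204 to 0.215 for the members measured. The line labels were checked with marker genes. On the NC1 arrays the A549 markers AKR1B10, AKR1C1 and ALDH3A1 were 7.89 to 12.17 higher in A549 on the log2 scale, ALDH1A1 was at least 8350-fold higher there, and the difference ran from -6.75 to -4.92 for EPCAM, CLDN7 and CDX2. On the HCT116 miR-891b array, 10.5% of gene spots lay in areas of stray signal, against 0.021 to 2.19% on the other 3. Such an area was taken to surround a spot where, among its neighbours within 10 rows and 10 columns that no other array showed well above background, at least 10% lit up.

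Of the 10 members, 7 were well above background on all 4 arrays: S100A2, S100A3, S100A4, S100A6, S100A10, S100A11 and S100P. S100A14 was so on both HCT116 arrays and on neither A549 array. S100A8 met the mark on the HCT116 miR-891b array alone, and S100A9 on none. A level compares 1 probe across arrays and is not a measure of one gene against another.

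**Figure D1:**
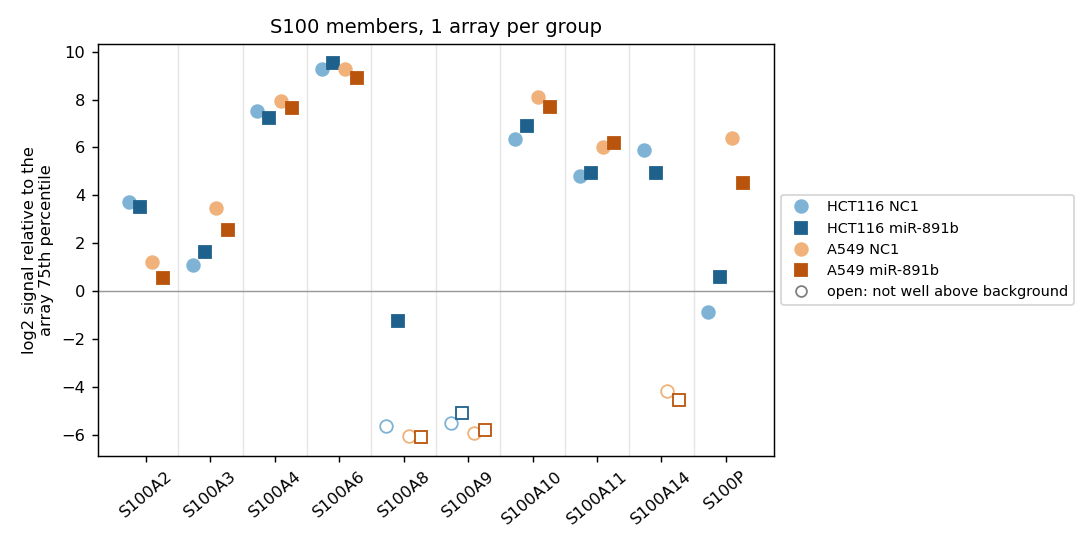
The log2 signal of each S100 member relative to the 75th percentile of its array, with 1 point per array and open symbols where the probe was not well above background. S100A14 is filled only for HCT116 and S100P is far higher on both A549 arrays, while the 4 points of S100A4 and of S100A6 lie within 1 log2 unit for each gene.

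The comparison of A549 with HCT116 separated the members into genes higher in A549 (S100P, S100A3, S100A10 and S100A11), genes higher in HCT116 (S100A14 and S100A2) and genes with little difference (S100A4 and S100A6). On the NC1 arrays, 4 of the 7 members measured on both arrays exceeded HCT116 by 2-fold or more in A549, and 1 was 2-fold or more lower. Of all 19218 genes measured on both arrays, 11.1% were at least 2-fold higher and 16.2% at least 2-fold lower. The median difference was 1.23 over the 7 members and -0.10 over all genes. On the miR-891b arrays, 2 of 7 members were higher in A549 by this measure and 1 was lower, against 11.4% and 20.7% of 18576 genes. The medians there were 0.81 and -0.20. S100A14 falls outside these counts, since it was not well above background in A549. The members were chosen with earlier results of these data known, so neither these counts nor those below measure the S100 family as a whole. Of 10 other S100 genes, 3 were measured on both NC1 arrays. None of them passed 2-fold, and their median was -0.17. On the miR-891b arrays, 0 of the 3 were higher and 1 was lower, with a median of -0.52.

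S100P, first found in placenta, binds ezrin and IQGAP1 inside cells and AGER outside them. Its probe lies at chr4:6698819-6698878 (hg19). HCT116 gave log2 signals of -0.87 (NC1) and 0.59 (miR-891b), and A549 gave 6.40 (NC1) and 4.53 (miR-891b). A549 was above HCT116 with either RNA, and the NC1 arrays were the lowest and the highest of the 4. The A549 minus HCT116 difference was 7.27 on the NC1 arrays, a 155-fold difference, and only 0.135% of genes differed as much. On the miR-891b arrays the difference was 3.94, or 15.3-fold. In an additive limma model of line and transfection over the 4 arrays, the line difference was 5.61 ± 0.85 (SE) with an adjusted p of 0.0146. That model takes the effect of the microRNA to be the same in both lines and leaves 1 residual degree of freedom.

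S100A14 is an epithelial member. Its probe lies at chr1:153587006-153587065 (hg19). The HCT116 signals were 5.89 (NC1) and 4.92 (miR-891b) on the log2 scale. Those of A549 were -4.19 (NC1) and -4.55 (miR-891b), neither well above background. S100A14 was at least 920.0-fold higher in HCT116 on the NC1 arrays and at least 461-fold higher on the miR-891b arrays. Each bound sets the bright array against the dimmest signal that still counted as well above background on the other. No p-value is given for S100A14 between the lines, since its A549 signals are at background. Among the 3 epithelial genes used as HCT116 markers, CLDN7 was 108-fold, CDX2 37.5-fold and EPCAM 30.2-fold higher in HCT116 on the NC1 arrays, and their part in the S100A14 difference was not tested.

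S100A2, a largely nuclear member known to bind p53, was the other gene higher in HCT116. The log2 signals were 3.72 (NC1) and 3.52 (miR-891b) in HCT116, and 1.23 (NC1) and 0.55 (miR-891b) in A549. HCT116 was higher with either RNA. The A549 minus HCT116 difference was -2.49 on the NC1 arrays and -2.97 on the miR-891b arrays. In limma it was -2.73 ± 0.26 (SE), with an adjusted p of 0.00451.

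S100A3, a cysteine-rich zinc-binding member best known from the hair cuticle, ran the other way. In HCT116 it stood at 1.1 (NC1) and 1.64 (miR-891b) on the log2 scale, and in A549 at 3.49 (NC1) and 2.55 (miR-891b). A549 was higher with either RNA, but the gap narrowed from 2.39 on the NC1 arrays to 0.91 on the miR-891b arrays. The limma line difference was 1.65 ± 0.43 (SE) with an adjusted p of 0.0518, which missed the threshold of 0.05. Over the alternative settings this p ran from 0.0152 to 0.0912.

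S100A10 is the annexin A2 partner that does not need calcium. The HCT116 arrays read 6.37 (NC1) and 6.89 (miR-891b) on the log2 scale, and the A549 arrays 8.11 (NC1) and 7.69 (miR-891b). A549 was above HCT116 by 1.74 with NC1 and by 0.81 with miR-891b. The limma difference was 1.27 ± 0.32 (SE) with an adjusted p of 0.0498, which rose to 0.0597 with the authors' own log2 values and to 0.0503 with outlier spots kept. Over all alternatives it ran from 0.0169 to 0.0597.

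S100A11, which binds annexin A1, had 2 probes that share a single base at one end. The brighter probe (chr1:152005160-152005219, hg19) gave log2 signals of 4.79 (NC1) and 4.94 (miR-891b) in HCT116, and of 6.02 (NC1) and 6.20 (miR-891b) in A549. The other probe gave 4.35, 4.51, 5.96 and 6.23 in the same order. Both probes were higher in A549 with either RNA, by 1.23 and 1.26 for the brighter one and by 1.61 and 1.72 for the other. The limma line difference of the brighter probe was 1.25 ± 0.23 (SE), with an adjusted p of 0.0239. The RefSeq table holds 10 S100A11 pseudogenes, and whether their transcripts reach these probes was not tested.

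S100A4 binds non-muscle myosin IIA (MYH9) and is studied in metastasis. HCT116 gave 7.50 (NC1) and 7.21 (miR-891b) on the log2 scale, and A549 gave 7.94 (NC1) and 7.65 (miR-891b). The line difference was 0.44 with either RNA, smaller than that of 58.9% of genes on the NC1 arrays. S100A6, or calcyclin, binds CACYBP and annexin A11. It gave 9.26, 9.54, 9.29 and 8.90 in the same order, and its lines differed by 0.03 on the NC1 arrays and by -0.64 on the miR-891b arrays. The sign of the second value flipped under 2 alternatives, reaching 0.06. The limma adjusted p for the line was 0.212 for S100A4 and 0.443 for S100A6.

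S100A8 and S100A9 together form calprotectin, a product of neutrophils and monocytes and a ligand of TLR4. S100A9 passed the background mark nowhere, with log2 signals of -5.50, -5.10, -5.91 and -5.81 (HCT116 with NC1 and with miR-891b, then A549 likewise). S100A8 gave -5.65, -1.26, -6.06 and -6.10, and only the second of these was well above background. On the NC1 arrays neither gene allowed a fold between the lines. The myeloid markers FCGR3A and MPO were dim on all 4 arrays, CSF1R was above background on HCT116 NC1 alone, and LYZ was not found under that name. PTPRC, CD14 and ITGAM were above background on all 4 arrays. The PTPRC and ITGAM levels were low, at log2 -2.60 to -1.47 and -2.41 to -1.10, and some other PTPRC probes were dim on all 4. CD14 was 14.1-fold higher in A549 than in HCT116 on the NC1 arrays. The summed signal of the 6 myeloid markers found, as a multiple of the 75th percentile, was 0.69 to 0.80 on the HCT116 arrays and 2.72 to 3.37 on the A549 arrays.

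In limma, 4 of the 7 members above background on all 4 arrays (S100A2, S100A10, S100A11 and S100P) had an adjusted p under 0.05 for the line, where 25.5% of the 18064 genes above background on all 4 arrays did. Of all 22712 genes in the model, 31.9% did. Genes entered it where they were well above background on at least 2 of 4 arrays, so S100A14 entered through the line in which it was high and is left out of the count. With slide and line the same, these p-values also cover any difference between the slides. The choice of members with earlier results known is not allowed for in this count.

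**Figure D2:**
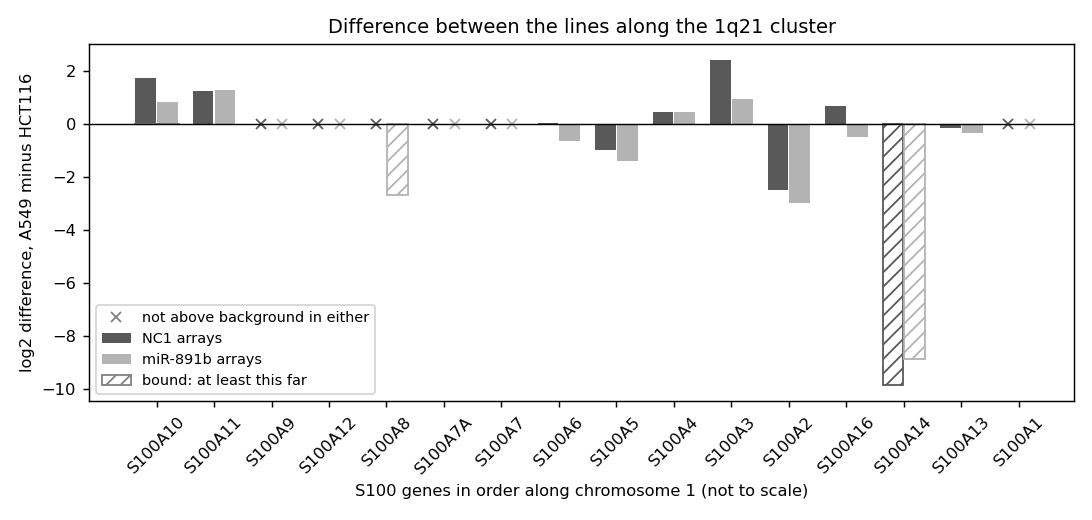
The A549 minus HCT116 log2 difference of 16 S100 genes in their order on chromosome 1, for the NC1 arrays (dark) and the miR-891b arrays (light), with hatched bars for bounds and crosses where neither array was above background. S100A3 and S100A2 stand next to each other with bars of opposite sign, 2.39 and -2.49 on the NC1 arrays.

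Along chromosome 1 (hg19), the array order of the cluster was S100A10, S100A11, S100A9, S100A12, S100A8, S100A7A, S100A7, S100A6, S100A5, S100A4, S100A3, S100A2, S100A16, S100A14, S100A13 and S100A1. The line differences did not run evenly along it. From S100A9 to S100A7, 5 genes in a row were dim on both NC1 arrays. S100A6, S100A5, S100A4, S100A3 and S100A2 followed with NC1 differences of 0.03, -0.98, 0.44, 2.39 and -2.49. The probes of S100A3 (chr1:153519998-153520057) and S100A2 (chr1:153533831-153533890), with the largest measured differences of each sign in the cluster, were 13.8 kb apart. S100A14, dim in A549, lay 7.33 kb from S100A16, which was 0.67 higher in A549 on the NC1 arrays, and 4.28 kb from S100A13, which differed by -0.17. Of 8 flanking genes chosen from the same band, 2 differed 2-fold or more on the NC1 arrays, ILF2 by -1.01 and SLC27A3 by -1.54. None of the 8 was 2-fold or more higher in A549 by its brightest probe. Among all 19218 genes measured on the NC1 arrays, 16.2% passed this limit towards HCT116 and 11.1% towards A549. With only 8 genes, these counts do not set the band apart from other genes. A second, dimmer NPR1 probe was well above background on the A549 arrays alone. It gave -2.21 (NC1) and -0.35 (miR-891b) there, against -5.73 and -5.32 in HCT116.

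The comparison of miR-891b with NC1 within each line gave smaller differences, and S100P was the 1 member past 2-fold among those measured on both arrays of a line, in opposite directions. In HCT116, 1 of 8 measured members was higher with miR-891b by 2-fold or more and 0 were lower, against 1.16% and 0.843% of 19105 genes. In A549, 0 of 7 were higher and 1 was lower, against 4.01% and 5.57% of 21336 genes. The median change of the members was 0.22 in HCT116 and -0.42 in A549. Over all genes the medians were -0.041 and -0.059. In the additive limma model the microRNA term reached an adjusted p under 0.05 for 0 of 8 members and for 0.0% of the 22712 genes. Of all those genes, 1214 had an unadjusted p under 0.05, and 0 of the 8 members did. The smallest adjusted p was 0.793. The microRNA term takes the change to be the same in both lines, so opposite changes cancel in it, and for S100P it was -0.21. The 0 of 8 therefore says nothing of changes that differ between the lines. S100A14, dim in A549, is among the 8 and entered the model through HCT116.

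**Figure D3:**
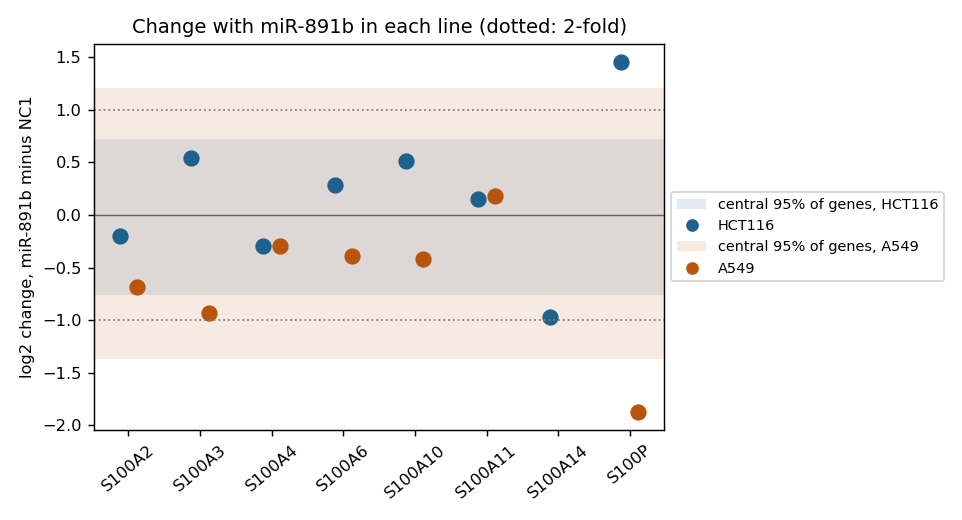
The log2 change (miR-891b minus NC1) of the 8 members measured in at least 1 line, in HCT116 (blue) and A549 (orange), over bands that hold the central 95% of all genes measured in that line. S100P lies outside the band in both lines, at 1.46 and -1.87, and S100A14 lies below the HCT116 band at -0.97.

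S100P was 2.75-fold higher with miR-891b in HCT116 (change 1.46) and 3.67-fold lower in A549 (change -1.87). A change as large was seen in 0.607% of genes in HCT116 and in 1.31% in A549. The processed signal went from 30.0 to 85.8 in HCT116 and from 6320 to 1710 in A549. The HCT116 value rests on a spot in an area of stray signal: of 187 neighbours dim on each other array, 39 (20.9%) passed the background mark here. Those nearby spots were brighter than on HCT116 NC1 by a median of 0.393 signal units, with a 90th percentile of 20.9 and a highest value of 147. The S100P spot was brighter by 55.7 units, and 4 of the 187 were brighter by as much. With normexp background correction and quantile normalization the HCT116 change was 0.74, under 2-fold. The A549 change ran from -1.88 to -1.60 over the alternatives, and the stray shares around the spot were 1.33% and 2.63% on the A549 arrays. The part of the stray signal in the HCT116 value was not tested.

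Because S100P was also far higher in A549, the A549 markers on the HCT116 arrays are given beside its change. AKR1B10 was 22.2-fold higher on HCT116 miR-891b than on HCT116 NC1. By their brightest probes, ALDH1A1 was not well above background on either HCT116 array, and AKR1C1 was so on HCT116 NC1 alone. ALDH3A1 changed by -0.48. A dimmer ALDH1A1 probe was well above background on HCT116 NC1 (-2.68) and not on HCT116 miR-891b. A dimmer AKR1C1 probe was so on both, at -2.98 (NC1) and -2.52 (miR-891b). The summed signal of these 4 genes, as a multiple of the 75th percentile, was 0.72 on HCT116 NC1 and 4.94 on HCT116 miR-891b, against 2269 (NC1) and 1908 (miR-891b) in A549.

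S100A14 changed by -0.97 in HCT116, from 5.89 to 4.92, a 1.96-fold difference just inside the 2-fold limit. In HCT116, 2.19% of genes changed as much. The stray shares around its spot were 1.08% on HCT116 NC1 and 0.543% on HCT116 miR-891b, and the change ran from -0.98 to -0.91 over the alternatives. CLDN7, a tight-junction gene among the HCT116 markers, changed by -0.87 on the same arrays, whereas EPCAM changed by -0.15 and CDX2 by 0.07, and their part in the S100A14 change was not tested. In A549, S100A14 had no measurable change, as both arrays were dim.

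S100A8 was at least 4.87-fold higher on HCT116 miR-891b than on HCT116 NC1, and at least 6.35-fold higher than on A549 miR-891b. Its spot also lay in an area of stray signal, where 21 (15.4%) of 136 neighbours dim elsewhere were well above background. The spot was brighter than on HCT116 NC1 by 22.6 units. Nearby spots were brighter by a median of 0.357 units, a 90th percentile of 10.1 and a highest value of 45.1, and 3 of them were brighter by as much. S100A9, its partner in calprotectin, was not well above background on that array. The part of the stray signal in the S100A8 value was not tested.

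**Figure D4:**
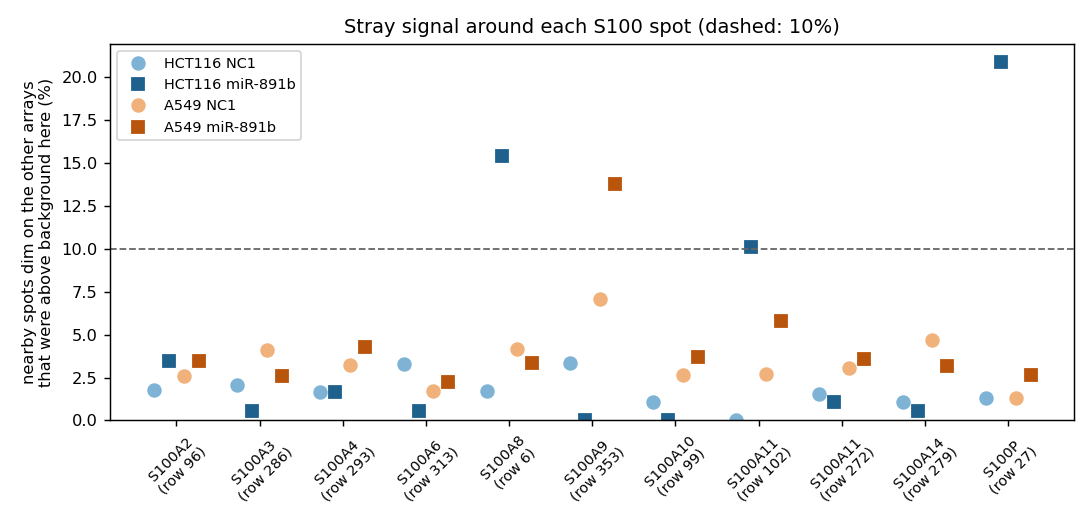
For each S100 probe and array, the percentage of neighbouring spots, dim elsewhere, that were well above background on that array, with the row of the probe on the array under its name. Of 44 points, 4 lie above the dashed 10% line, with S100P (20.9%) and S100A8 (15.4%) on HCT116 miR-891b the highest.

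The remaining members changed by less than 2-fold. S100A3 changed by 0.55 in HCT116 and by -0.93 in A549. S100A10 changed by 0.51 and -0.42, and S100A6 by 0.28 and -0.39. These 3 were therefore higher with miR-891b in HCT116 and lower in A549, as S100P was. The share of all genes with these signs was not computed. S100A4 was lower in both lines, with changes of -0.29 and -0.30, as was S100A2, with -0.20 and -0.68. S100A11 was higher in both, by 0.15 and 0.18 with the brighter probe and by 0.16 and 0.27 with the other. The S100A2 change in HCT116 and the S100A11 changes, except that of the second probe in A549, were smaller than the single-spot error of a difference, 0.204. The other changes were larger than it, and none can be set against a spread between cultures. With other scalings the A549 changes of S100A4 and S100A10 reached 0.15 and 0.10, so their sign in A549 depended on the scaling, and that of S100A6 came down to -0.02.

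The difference between the 2 changes, A549 minus HCT116, was -3.33 for S100P, -1.48 for S100A3, -0.93 for S100A10 and -0.67 for S100A6. Among the 18064 genes measured in both lines, 8 (0.0443%) differed as much as S100P, 3.76% as much as S100A3, 13% as much as S100A10 and 24.3% as much as S100A6. With 1 array per group the difference was not tested for any gene. Genes at least 2-fold higher in HCT116 and at least 2-fold lower in A549 made up 0.0332% of the 18064. These 6 genes were C1orf116, CENPI, LINC00842, PLCXD2, S100P and STXBP5L, the 5 beside S100P being named after their values were seen. The line differences and the changes share arrays, so the narrowing of the S100P, S100A3 and S100A10 gaps between the NC1 and miR-891b arrays is the same measurement as these differences.

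The partner genes of the members were given from a list of 10, all of them above background on all 4 arrays. The counts of partners use the brightest probe of each gene. Between the lines on the NC1 arrays, 1 of 10 was at least 2-fold higher in A549 and 1 lower, with a median of -0.02, against 11.1% and 16.2% of all genes. On the miR-891b arrays, 0 were higher and 4 lower (EZR, CACYBP, MYH9 and SUGT1, the last by 2.0-fold), with a median of -0.16, against 11.4% and 20.7% of all genes. EZR, the ezrin gene whose product binds S100P, was the lower one. It gave 7.30 (NC1) and 7.56 (miR-891b) in HCT116, and 5.06 (NC1) and 4.61 (miR-891b) in A549. S100P and EZR thus stood in opposite order between the lines. The EZR line difference was -2.24 on the NC1 arrays and -2.96 on the miR-891b arrays, with a limma adjusted p of 0.0067. EZR was the 1 partner of 10 under 0.05 for the line, against 25.5% of all genes above background on all 4 arrays. ANXA1, the annexin bound by S100A11, was the higher one, by 1.02 on the NC1 arrays and 0.61 on the miR-891b arrays, with a limma adjusted p of 0.0769. The ANXA1 spot also lay in an area of stray signal on HCT116 NC1 (16.4% of neighbours). ANXA2, the partner of S100A10, had 2 probes that disagreed in size. The brighter gave line differences of 0.81 with NC1 and 0.14 with miR-891b, and the dimmer 3.11 and 2.43, against 1.74 and 0.81 for S100A10 itself. A dimmer AHNAK probe gave 2.09 with NC1 and 1.57 with miR-891b. The brightest AHNAK probe gave -0.17 and 0.265, and the remaining probe -0.32 and -0.34. On the miR-891b arrays, a dimmer probe of ANXA11 gave -1.09 and a dimmer probe of S100PBP -1.30, against 0.28 and -0.12 for their brightest.

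With miR-891b, 0 of 10 partners passed 2-fold in HCT116 by their brightest probes, and 1 did in A549. That was MYH9, which encodes the S100A4-binding myosin and changed by -1.12 in A549 and by -0.33 in HCT116. The shares of all genes past 2-fold were 1.16% higher and 0.843% lower in HCT116, and 4.01% and 5.57% in A549. A second, dimmer MYH9 probe changed by -0.88 in A549 and by 0.93 in HCT116, where its miR-891b spot lay in an area of stray signal (12.1% of neighbours). A dimmer AHNAK probe also passed 2-fold in A549, with changes of -1.13 there and -0.605 in HCT116. The brightest AHNAK probe changed by 0.22 in A549 and -0.21 in HCT116, and the remaining probe by 0.16 and 0.17. CACYBP, the partner of S100A6, changed by 0.18 in HCT116 and by -0.77 in A549, and the line difference of CACYBP was -0.26 with NC1 and -1.21 with miR-891b. Of its 2 dimmer probes, one gave line differences of -0.04 and -0.97 and the other 0.32 and 0.17. Of the 19 partner probes, 1 held the complement of the miR-891b seed, a probe of ANXA11. That probe changed by -0.12 in HCT116 and by -0.52 in A549. The brightest ANXA11 probe, without those letters, changed by -0.07 and -0.31, and its spot had a stray share of 12.1% on the A549 miR-891b array.

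Of 4 surface receptors and binding partners for released S100 proteins, AGER and BSG were above background on all 4 arrays, TLR4 on both A549 arrays alone and CD36 on none. AGER gave 1.44 (NC1) and 0.90 (miR-891b) in HCT116, and -0.21 (NC1) and 0.01 (miR-891b) in A549. It was higher in HCT116, the A549 minus HCT116 difference being -1.65 on the NC1 arrays and -0.89 on the miR-891b arrays, with a limma adjusted p of 0.041 for the line. The AGER spot lay in an area of stray signal on HCT116 NC1 (14.1% of neighbours), whose part in the difference was not tested. TLR4, a receptor for calprotectin, was -1.49 (NC1) and 0.23 (miR-891b) in A549, and was dim on both HCT116 arrays. It was at least 4.16-fold higher in A549 on the NC1 arrays and at least 10.3-fold on the miR-891b arrays. Its change with miR-891b in A549 was 1.72, or 3.30-fold. Both genes of calprotectin were dim in A549.

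Of 10 further S100 genes on the array, S100A5, S100A13 and S100A16 were above background on all 4 arrays, S100G on HCT116 miR-891b alone and 6 on none. S100A5, which lies between S100A6 and S100A4, differed by -0.98 with NC1 and by -1.39 with miR-891b (A549 minus HCT116), with a limma adjusted p of 0.0327. S100G, an intestinal and renal calcium-binding member, was at least 2.28-fold higher on HCT116 miR-891b than on HCT116 NC1. Its spot had a stray share of 1.09% on HCT116 miR-891b. The signal there was low, 11.1 units or -2.36 on the log2 scale, where the dimmest signal well above background was -3.14. S100A16 changed by 0.29 in HCT116 and by -0.90 in A549, which are the directions seen for S100P, S100A3, S100A10 and S100A6. S100A5 was lower with miR-891b in both lines, by -0.36 and -0.77, as was S100A13, by -0.24 and -0.43. Of 18 genes of the epidermal differentiation complex, which shares the 1q21 region, SPRR1A and SPRR2D were above background on all 4 arrays and 11 on none. SPRR2A was at least 2.49-fold higher in HCT116 on the NC1 arrays.

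The upstream sequences fell into 2 sets by CpG content. The ratio of observed to expected CG dinucleotides in the 250 bases before the start site was 0.803 for S100A6, 0.786 for S100A10 and 0.741 for S100A11. In the other 7 members it was 0.111 to 0.284. The median of 35116 promoters in the RefSeq table was 0.558. The 3 CG-rich members were above background on all 4 arrays, and the members dim on at least 2 arrays (S100A8, S100A9 and S100A14) were all CG-poor, but so were S100A2, S100A3, S100A4 and S100P, which were above background throughout.

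**Figure D5:**
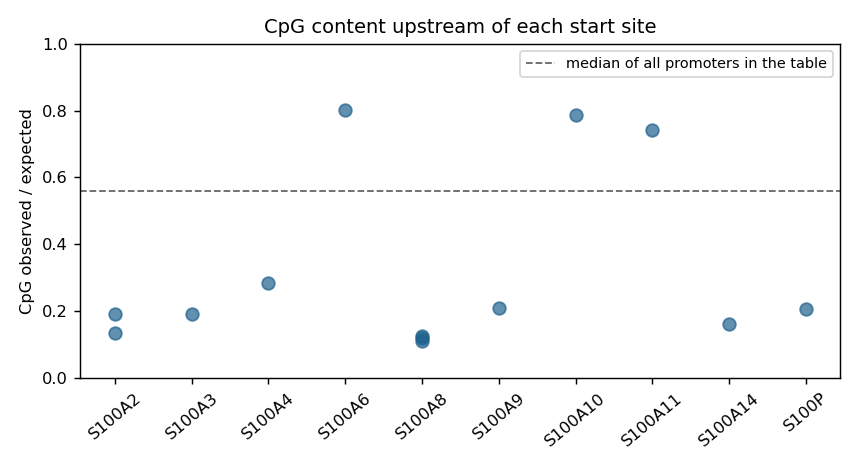
The observed over expected CG dinucleotide ratio in the 250 bases upstream of each start site, with several points where RefSeq gives several start sites, and the median of all promoters as a dashed line. S100A6, S100A10 and S100A11 lie above the median of 0.558, and the other 7 members lie below it.

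Short motifs were searched on both strands of the same 250 bases. TATAAA was found 28 bases before the start of S100P, 29 before one start of S100A8, 29 before S100A9 and 31 before S100A4, and 10.7% of all promoters held it. S100P therefore carries TATAAA in the sequence shown above. The S100A14 and S100A6 sequences lack that exact string, but each holds TATAAG near its end, which was not searched for. TGANTCA, the binding letters of AP-1, was found in S100A2 and S100A3 and in 6.57% of all promoters. GGGCGG, a GC box, was found 3 times in S100A6, once each in S100A3, S100A9, S100A10 and S100A11, and in 42.6% of all promoters. These matches are letters in a window and do not show that a factor binds there.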

How the data were processed

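The deposited scanner files hold linear intensity values for 4 one-colour Agilent arrays, 1 per group. Per the file headers, Feature Extraction 11.5.1.1 subtracted background, and probe coordinates are on hg19. The authors also deposited a value table in log2. It matched the scaling used here (below) within a median of 0.0069 (largest difference 0.109), so its scale and centring follow from that match, although how it was made is not given in the sources used here. Its column medians were -3.80, -3.60, -3.71 and -3.68. RNA was extracted with QIAzol and miRNeasy, per the labels' protocols.

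Outlier spots were left out, log2 processed signal was averaged over a probe's spots and the array's 75th percentile (signals of 54.9, 57.0, 74.8 and 74.2) was subtracted. A gene was represented by its brightest probe over the 4 arrays. Genes well above background on both arrays compared were called at 2-fold. A gene dim on one array was given a bound, set against the higher of its own signal there and that array's lowest signal well above background. The additive model (line and transfection, all 4 arrays) was fitted with limma 3.58.1 in R 4.3.3, with Benjamini-Hochberg adjustment over 22712 genes. It was also run on simulated data with known effects of the transfection alone, equal in both lines. That run does not cover the p-values for the line, changes that differ between the lines, or slide differences. Other steps used pandas 2.3.3 and numpy 2.4.6 under Python 3.11.15. Alternatives were quantile normalization, alone or after normexp (offset 50), median scaling, the authors' values, the mean over probes, no filter on dim probes, outlier spots kept, areas of stray signal left out and a 1.5-fold limit. In the additive model, a filter requiring all 4 arrays was also tried.

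The members and gene lists were chosen with earlier results of these data known. All 10 members are named with every probe. From the other lists, genes past 2-fold in a comparison, or up to 3 measured genes where fewer were, could be named, and not all of them are. Some others are named for their tie to a member, after their values were seen. All 10 members matched current RefSeq symbols, and sequences are from RefSeq (GRCh38.p14), used for no coordinates of the arrays. Of the fibroblast markers, COL1A1 and PDGFRB were above background on all 4 arrays, COL1A2, COL3A1 and DCN on none, and LUM on the A549 arrays alone, at least 23.9-fold higher there with NC1. Summed signals of the 6 were 2.62 and 2.16 on the HCT116 arrays and 3.90 and 10.4 on the A549 arrays, with NC1 first. The HCT116 marker sums were 150 and 126 on the HCT116 arrays and 4.24 and 6.66 on the A549 arrays.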

Additional observations from a re-analysis of the deposited data

Results flagged for a closer look

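For 4 members the change with miR-891b was positive in HCT116 and negative in A549. The share of all genes with these signs was not computed, so this count is not a result about the S100 genes. The A549 change minus the HCT116 change was -3.33 for S100P, -1.48 for S100A3, -0.93 for S100A10 and -0.67 for S100A6. With 1 array per group these differences were not tested. The A549 change of S100A10 turned positive with quantile normalization, alone (0.004) or after normexp (0.095), and that of S100A6 came down to -0.02, so these 2 directions depend on the scaling. The S100P value includes the HCT116 miR-891b spot in an area of stray signal (20.9% of nearby spots), whereas the stray shares around the S100A3, S100A10 and S100A6 spots were 0.0 to 4.08% on the 4 arrays.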

How the results depend on the processing

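Of 58 counts of members recomputed under the alternatives, 48 stayed within 1.5 times the reported count. The 5 members past 2-fold between the lines on the NC1 arrays and the 0 for the microRNA in limma stayed within that range under every alternative run. So did the limma count for the line, which is 5 here because S100A14 is included. S100A14 is dim in A549 and entered through the line where it was high, so its p-value carries no weight. Without it the count was 4 of 7, as given above. The count between the lines on the miR-891b arrays, 3, became 6 with quantile normalization, 5 with no filter on dim probes and 6 at 1.5-fold. The HCT116 count with miR-891b, 1, became 0 with normexp and quantile normalization, 0 without areas of stray signal and 2 with no filter on dim probes or at 1.5-fold. It was also 0 when only stray areas on the 2 arrays compared were left out, an alternative chosen after seeing the data. The A549 count, 1, became 0 without areas of stray signal, since the S100P probe is dropped for the HCT116 miR-891b array, and 3 at 1.5-fold. It stayed at 1 when only stray areas on the A549 arrays were left out.

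Of 29 measured member differences, 26 kept their sign and 25 their side of 2-fold under all alternatives. Quantile normalization and median scaling moved the median of all genes on the miR-891b arrays between the lines from -0.20 to -0.08, and normexp with quantile normalization moved it to -0.04. The share of called genes that were higher there went from 35.6% to 43.3% with quantile normalization and 45.7% with normexp and quantile normalization together. In HCT116 with miR-891b it went from 57.9% to 50.1% and 71.1%. Normexp and quantile normalization together left 32 genes at least 2-fold higher and 13 lower in HCT116, and quantile normalization alone 187 and 186, against 221 and 161. Normexp alone was not run. No paired analysis was possible because replicate numbers pair nothing with 1 array per group, beyond the additive model, which sets miR-891b against NC1 within each line over 2 lines. Leaving out an array would leave a group empty and the additive model with no residual degree of freedom, so it was not run. The signal over background limits S100A8, S100A9 and, in A549, S100A14.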
